A study of Mus musculus with 6 samples.

Results

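Genes of the tumor necrosis factor (TNF) superfamily were examined in dorsal root ganglia (DRGs), the ganglia that hold the cell bodies of sensory neurons, of male mice. Every row of the deposited count table whose symbol begins with *Tnfsf*, the ligands, or with *Tnfrsf*, the receptors, was taken, which gave 33 of 48440 rows. Of these, 13 have a *Tnfsf* and 20 a *Tnfrsf* symbol, and the members follow from the symbol alone, although the family was chosen for description with earlier results of these data known. In the AAV5-*Gfp* group, the L3/4 DRGs of 1 side were microinjected with an adeno-associated virus (AAV5) that expresses green fluorescent protein. In the AAV5-*V1+V2* group, they received a mixture of the viruses AAV5-V1 and AAV5-V2, each of which makes 1 of the transcript variants of NIS-lncRNA, a long noncoding RNA that the study links to nerve injury. All 6 libraries, 3 in each group, come from male mice of genotype WT, and every mouse had received a virus, so that no untouched DRG is among them. Virus preparation and transcript both differ between the groups, and their effects cannot be told apart. The text deposited with the data gives tissue collection at 5 weeks after microinjection and places the comparison at 4 weeks. How many mice contributed to a library was not stated in the sources used here, and the p-values below measure the spread between these libraries.

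TNF superfamily ligands are mostly made as trimers on the surface of immune cells, from which some are shed, and they bind receptors with cysteine-rich repeats on neighboring cells. A group of the receptors carries a death domain and can start apoptosis, and most of the others bind TRAF adaptors and activate NF-kB. The ligand BAFF and its receptors keep B cells alive, a set of receptors on T cells gives costimulatory signals after activation, RANKL and RANK control the formation of osteoclasts, and TNF itself is known in the DRG as a cytokine that sensitizes sensory neurons. Some members, such as the death receptor DR6 (*Tnfrsf21*) and TROY (*Tnfrsf19*), are known from the nervous system.

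Total counts ranged from 32618252 to 34764282 in AAV5-*Gfp* and from 32025612 to 34228594 in AAV5-*V1+V2* libraries. No pair of libraries within a group differed by as little as sampling noise (chi-square per degree of freedom between 8.83 and 52.8), and AAV5-*V1+V2* replicate 1 was the most distant from the others of its group. All 12 sensory neuron markers were detected, and their summed level was between 10396 and 11201 in AAV5-*Gfp* and between 6709 and 9742 in AAV5-*V1+V2* libraries, lowest in AAV5-*V1+V2* replicate 1, in CPM (the counts of a gene relative to the size of its library after TMM normalization). The counts of the overexpressed transcripts were not analysed here. Since DRGs were sequenced as whole tissue, more cells of a type and more RNA per cell cannot be told apart for any gene described below.

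Of the 33 members, 30 had enough counts for the test, and 17 of these 30 (56.7%) were higher in AAV5-*V1+V2* than in AAV5-*Gfp* DRGs, at an adjusted p below 0.05 by the quasi-likelihood test of edgeR. Among all 18593 genes tested, 10.1% were higher by the same rule. No member was lower, either by that rule, which 5.27% of all genes met, or at an unadjusted p under 0.05, which 15.5% met, and DESeq2 also found 0 lower. The median log2 fold change was 1.01 over the 30 members and -0.0003 over all genes tested. Of the 17 higher members, 14 rose over 2-fold, whereas 5.66% of all genes tested were higher by over 2-fold. For 21 of the 30 members (70%), every AAV5-*V1+V2* library lay above every AAV5-*Gfp* library, compared with 23.4% of all genes. Ligands and receptors both took part, with 6 of 8 tested ligands and 11 of 20 receptors higher, and the other 2 tested *Tnfsf* symbols, a readthrough gene and an antisense gene, were not called. The filter on low counts bears on these numbers, because 8 members passed it only through their levels in AAV5-*V1+V2* libraries and could therefore hardly have been lower. These 8 were *Tnfrsf8*, *Tnfrsf9*, *Tnfrsf17*, *Tnfrsf18*, *Tnfsf11*, *Tnfsf13*, *Tnfsf14*, and *Tnfsf15*, of which 6 were higher, all but *Tnfrsf17* and *Tnfsf13*. Of the 659 genes tested that passed only in this way, 37.9% were higher. The other 22 would have passed on their levels in AAV5-*Gfp* libraries alone, and 11 of them were higher, beside 9.29% of the 17469 genes tested that passed in this way. For 14 of these 22, every AAV5-*V1+V2* library lay above every AAV5-*Gfp* library, beside 3966 of the 17469 genes. The same held for 7 of the 8 others, beside 387 of 659 genes. The median and the count over 2-fold were not split in this way.

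**Figure D1:**
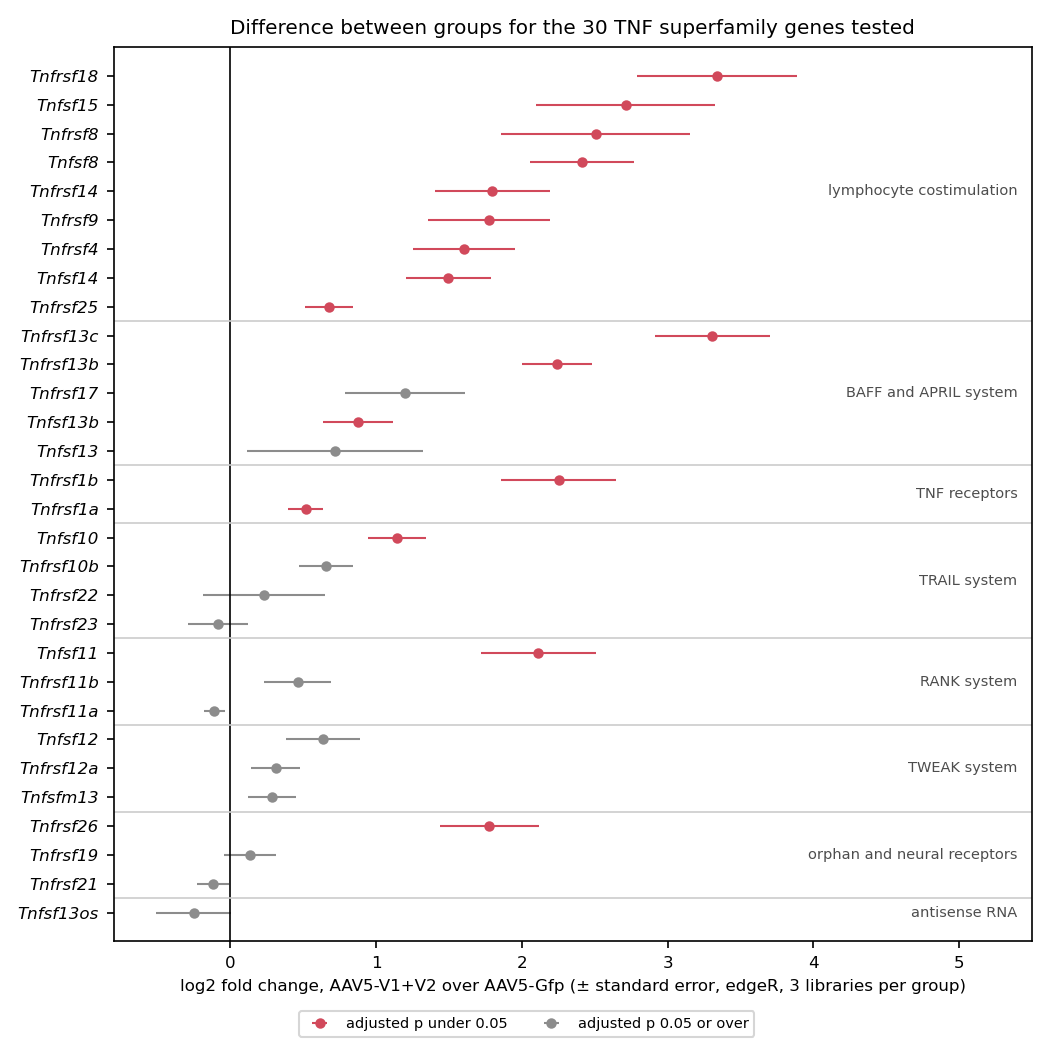
The log2 fold change of AAV5-V1+V2 over AAV5-Gfp (x axis) is plotted for each of the 30 members tested (y axis), grouped by ligand and receptor system, with bars for the standard error from edgeR and 3 libraries per group. The 17 red points are the members with an adjusted p under 0.05, which all lie to the right of 0, and the 9 tested members of lymphocyte costimulation are all among them.

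The calls rested on having 3 libraries in the AAV5-*Gfp* group. Without AAV5-*Gfp* replicate 1, only *Tnfrsf13b* (adjusted p = 0.0439) and *Tnfrsf13c* (0.0443) were higher by edgeR's test, beside 1.35% of all genes. Leaving out AAV5-*Gfp* replicate 2 or replicate 3 left 0 members higher, and 0.0634% and 0.0792% of all genes. At an unadjusted p under 0.05, 21 and 18 members were higher in these fits, beside 15.4% and 15.5% of all genes. Removal of AAV5-*V1+V2* replicate 1, in which all 17 higher members had their highest level, left 14 higher, beside 9.85% of all genes. The other AAV5-*V1+V2* libraries gave 10 higher members without replicate 2 (5.4% of all genes) and 16 without replicate 3 (13.1%). None of the 17 changed direction when any library was left out, and their log2 fold changes without AAV5-*V1+V2* replicate 1 lay between 0.40 for *Tnfrsf1a* and 2.88 for *Tnfrsf13c*.

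**Figure D2:**
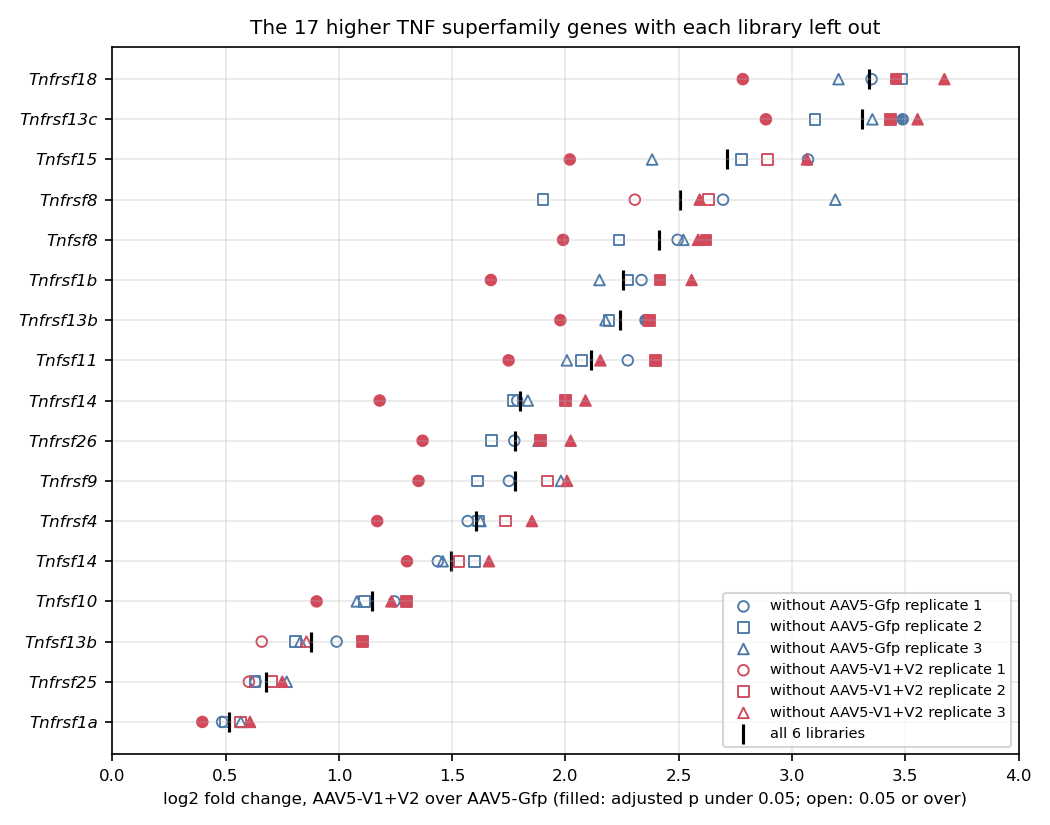
For the 17 members that were higher (y axis), each symbol gives the log2 fold change of AAV5-V1+V2 over AAV5-Gfp (x axis) after the library named in the key was left out, filled where the adjusted p was under 0.05 and open where it was not, and the black line gives the value with all 6 libraries. Leaving out AAV5-V1+V2 replicate 1 gave the smallest value for 16 of the 17 members, all but Tnfrsf8, and the blue symbols are open but for Tnfrsf13b and Tnfrsf13c without AAV5-Gfp replicate 1.

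Because many members moved together, their promoters were read for sequences that are known to be bound by NF-kB, the factor most of the receptors activate, and by ETS factors, which are active in lymphoid cells. RefSeq promoters (GRCm38.p6, 250 bases before to 50 after a start) were held for 25 of the 33 members, in 29 entries. The kappaB consensus, searched on both strands, was found in 3 of the 29 entries and in 5.8% of all 32851 promoters. These entries belong to *Tnfrsf8*, *Tnfrsf9*, and *Tnfrsf25*. All of them were higher, as were 17 of the 30 members tested, and *Tnfrsf8* and *Tnfrsf9* passed the filter only through AAV5-*V1+V2* libraries. Whether a match goes with the difference between the groups was not tested. The ETS core GGAAGT, also searched on both strands, was found in 4 of the 29 entries (*Tnfrsf4*, *Tnfrsf13b*, *Tnfrsf14*, and *Tnfsf18*), a smaller share than the 23.8% of all promoters. The stretches around the matches are shown for the higher members, since these are the promoters of genes described below, each 5′ to 3′ along the gene's strand, with the match in capitals. In *Tnfrsf8* and *Tnfrsf9*, overlapping kappaB matches form the run in capitals, and the entries shown for *Tnfrsf9*, *Tnfrsf14*, and *Tnfrsf25* belong to a start inside the gene. The *Tnfrsf25* entry has another kappaB match 37 bases after its start, which is not shown.
Tnfrsf9, chr4:150927916-150927998, plus strand, kappaB match 43 to 33 bases before the start: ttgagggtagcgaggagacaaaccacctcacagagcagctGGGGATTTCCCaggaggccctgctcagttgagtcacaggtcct
Tnfrsf8, chr4:145315282-145315372, minus strand, kappaB match 168 to 158 bases before the start: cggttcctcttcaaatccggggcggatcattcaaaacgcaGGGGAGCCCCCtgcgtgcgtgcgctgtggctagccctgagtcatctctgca
Tnfrsf25, chr4:152116275-152116342, plus strand, kappaB match 28 to 19 bases before the start: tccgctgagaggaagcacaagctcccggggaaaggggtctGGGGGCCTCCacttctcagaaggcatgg
Tnfrsf13b, chr11:61126665-61126750, plus strand, ETS core 50 to 45 bases before the start: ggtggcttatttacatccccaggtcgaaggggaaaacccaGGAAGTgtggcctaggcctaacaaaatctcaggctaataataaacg
Tnfrsf4, chr4:156013488-156013573, plus strand, ETS core on the other strand 167 to 162 bases before the start: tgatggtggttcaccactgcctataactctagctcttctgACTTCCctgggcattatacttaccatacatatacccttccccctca
Tnfrsf14, chr4:154928265-154928327, minus strand, ETS core on the other strand 233 to 228 bases before the start: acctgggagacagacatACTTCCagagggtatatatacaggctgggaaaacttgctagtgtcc
A match is a description of the letters in this window only. The members with the largest fold changes, *Tnfrsf18* and *Tnfrsf13c*, are not among those with a match. A member without a promoter entry could not show a match, and whether *Tnfrsf18* and *Tnfrsf13c* had an entry is not given here.

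**Figure D3:**
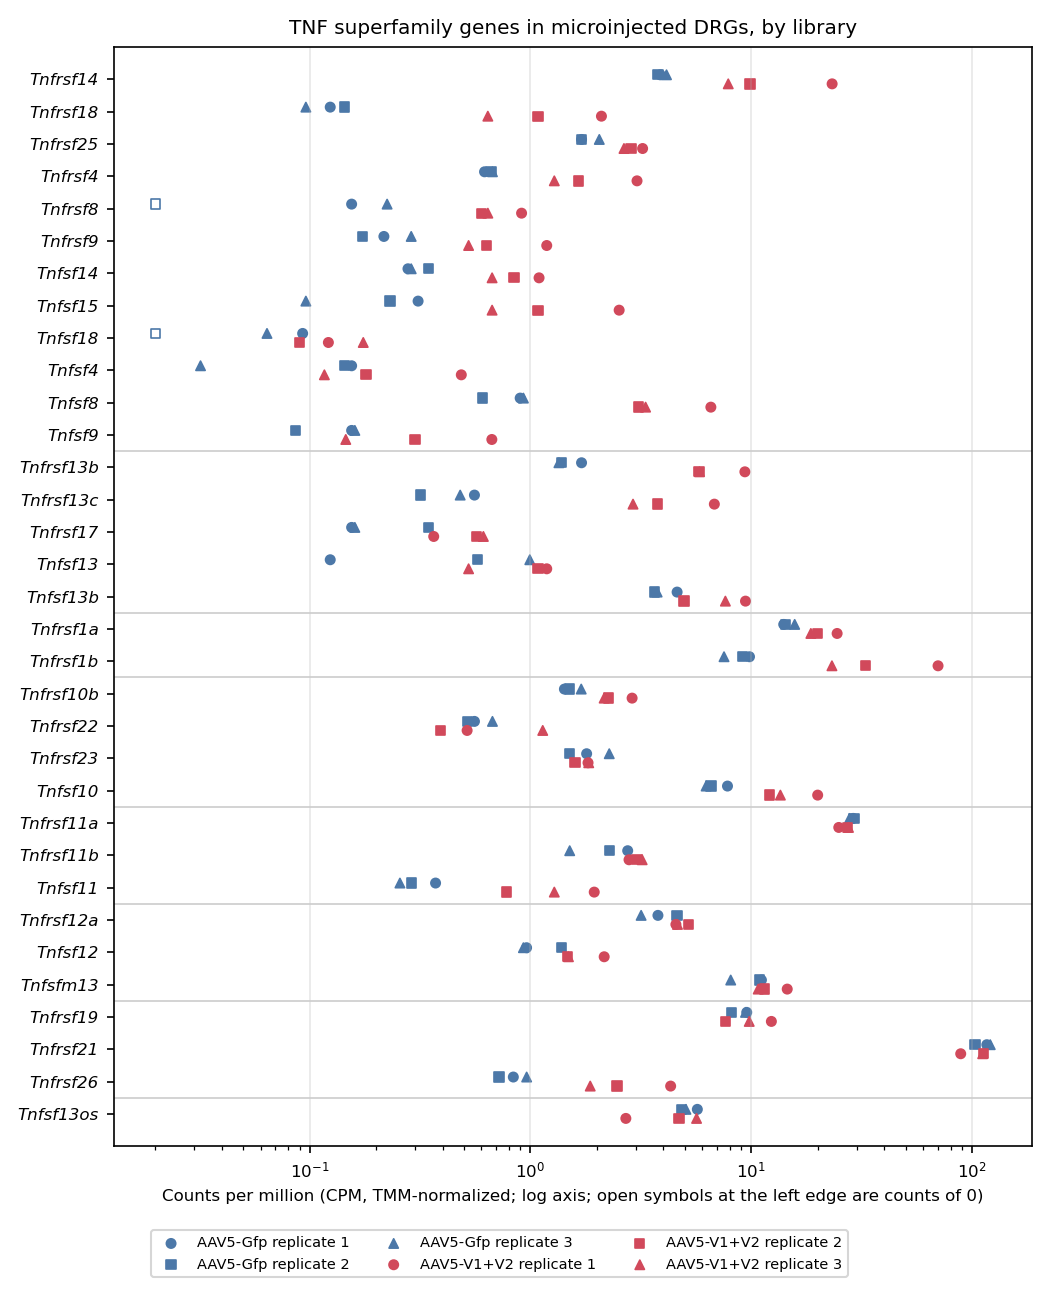
The level of each of the 33 members (y axis, grouped by system) is plotted in every library as TMM-normalized CPM on a log axis, in blue for AAV5-Gfp and red for AAV5-V1+V2, with a symbol for each replicate and open symbols at the left edge for counts of 0. The red symbols lie to the right of the blue ones without overlap for 21 of the members tested, and both colors lie close together for Tnfrsf21, Tnfrsf11a, and Tnfrsf19.

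In the lymphocyte costimulation system, all 9 tested members were higher, 6 receptors and 3 ligands, with log2 fold changes from 0.68 to 3.34. Of the 9, 5 (*Tnfrsf8*, *Tnfrsf9*, *Tnfrsf18*, *Tnfsf14*, and *Tnfsf15*) passed the filter only through AAV5-*V1+V2* libraries, a route by which 37.9% of all such genes were higher and 0 were lower, and 4 of 4 were higher among those that passed on AAV5-*Gfp* levels, beside 9.29% of all genes. Among the receptors, GITR (*Tnfrsf18*, chr4:156026164-156028895 in GRCm38), a receptor of regulatory and activated T cells, had 4, 5, and 3 counts in AAV5-*Gfp* replicates 1 to 3, and 69, 36, and 22 counts in AAV5-*V1+V2*. It was near the floor in every control library and well above it in every AAV5-*V1+V2* library, and its log2 fold change of 3.34 (SE 0.55, adjusted p = 0.0161) was the largest of all members. OX40 (*Tnfrsf4*, chr4:156013843-156016612), which prolongs the survival of activated T cells, was at 0.62, 0.66, and 0.67 CPM in AAV5-*Gfp* and at 3.04, 1.65, and 1.28 CPM in AAV5-*V1+V2* libraries. The control libraries were nearly alike and the AAV5-*V1+V2* libraries spread over a wider range above them (log2 fold change 1.60, SE 0.35, adjusted p = 0.0283). HVEM (*Tnfrsf14*), the receptor of LIGHT on lymphocytes and other cells, was between 3.78 and 4.13 CPM in AAV5-*Gfp* libraries and at 23.2, 9.88, and 7.87 CPM in AAV5-*V1+V2*. Its log2 fold change was 1.80 (SE 0.39, adjusted p = 0.0286) and fell to 1.18 without AAV5-*V1+V2* replicate 1, where the adjusted p was 0.00317. With limma-voom, HVEM had an adjusted p of 0.0591.

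4-1BB (*Tnfrsf9*), a receptor of activated T and NK cells, had 7, 6, and 9 counts in AAV5-*Gfp* and 39, 21, and 18 in AAV5-*V1+V2* libraries (log2 fold change 1.78, SE 0.42, adjusted p = 0.0348). CD30 (*Tnfrsf8*), a marker of activated lymphocytes, had 5, 0, and 7 counts in AAV5-*Gfp* and 30, 20, and 22 in AAV5-*V1+V2*. Its log2 fold change was 2.51 (SE 0.65, adjusted p = 0.0426), and the value moved between 1.90 without AAV5-*Gfp* replicate 2, the library without a count, and 3.19 without AAV5-*Gfp* replicate 3, where the adjusted p was 0.0837 and 0.104, and with limma-voom the adjusted p was 0.0528. DR3 (*Tnfrsf25*), a death domain receptor of T cells, was the least changed of the group, from between 1.70 and 2.05 CPM in AAV5-*Gfp* to 3.22, 2.85, and 2.65 CPM in AAV5-*V1+V2* (log2 fold change 0.68, SE 0.17, adjusted p = 0.0378). The adjusted p of CD30 and DR3 was above 0.05 without AAV5-*V1+V2* replicate 1 (0.0719 and 0.0574). Without replicate 2 it was 0.0542 for OX40, 0.0632 for 4-1BB, 0.0813 for CD30, and 0.0850 for DR3.

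Of the 6 costimulatory ligands, 3 were higher and the other 3 had too few counts to pass the filter. CD30 ligand (*Tnfsf8*, chr4:63831308-63861347), which is made by activated lymphocytes, was at 0.90, 0.61, and 0.93 CPM in AAV5-*Gfp* and at 6.56, 3.09, and 3.32 CPM in AAV5-*V1+V2* libraries. All AAV5-*V1+V2* libraries were at least 3 CPM and no control library reached 1 CPM (log2 fold change 2.41, SE 0.36, adjusted p = 0.0144). TL1A (*Tnfsf15*, chr4:63727084-63745113), the ligand of DR3, had 10, 8, and 3 counts in AAV5-*Gfp* and 83, 36, and 23 in AAV5-*V1+V2*. Its log2 fold change of 2.71 (SE 0.61, adjusted p = 0.0308) was the largest among the ligands and fell to 2.02 without AAV5-*V1+V2* replicate 1. LIGHT (*Tnfsf14*), the ligand of HVEM, had 9, 12, and 9 counts in AAV5-*Gfp* and 36, 28, and 23 in AAV5-*V1+V2* (log2 fold change 1.496, SE 0.29, adjusted p = 0.0224). Both TL1A (0.0577) and LIGHT (0.0557) had an adjusted p above 0.05 without AAV5-*V1+V2* replicate 2, and TL1A also had with limma-voom (0.0516). OX40 ligand (*Tnfsf4*) had 5, 5, and 1 counts in AAV5-*Gfp* and 16, 6, and 4 in AAV5-*V1+V2*, 4-1BB ligand (*Tnfsf9*) had 5, 3, and 5 and then 22, 10, and 5, and GITR ligand (*Tnfsf18*) had 3, 0, and 2 and then 4, 3, and 6. The groups overlapped for all 3. Without the filter, edgeR gave adjusted p of 0.357 for OX40 ligand, 0.180 for 4-1BB ligand, and 0.416 for GITR ligand, and 4-1BB ligand, which also passed the filter in some fits without 1 library, had a log2 fold change of 1.85 (adjusted p = 0.0510) without AAV5-*V1+V2* replicate 3.

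In the BAFF and APRIL system, which supports B cells and plasma cells, 3 of 5 members were higher, the ligand BAFF and the receptors TACI and BAFF receptor. These 3 passed the filter on AAV5-*Gfp* levels, by which 9.29% of all such genes were higher. The other 2, BCMA and APRIL, passed only through AAV5-*V1+V2* libraries, by which 37.9% were higher. BAFF receptor (*Tnfrsf13c*, chr15:82221743-82224369), the receptor through which BAFF keeps mature B cells alive, was at 0.56, 0.32, and 0.48 CPM in AAV5-*Gfp* and at 6.81, 3.76, and 2.92 CPM in AAV5-*V1+V2* libraries. Its log2 fold change of 3.31 (SE 0.39, adjusted p = 0.0139) was the largest of this system. TACI (*Tnfrsf13b*, chr11:61126755-61149372), which binds both ligands and is known from marginal zone B cells and plasma cells, was at 1.70, 1.39, and 1.35 CPM in AAV5-*Gfp* and at 9.36, 5.80, and 5.83 CPM in AAV5-*V1+V2*. It had the smallest adjusted p of all members, 0.0105, with a log2 fold change of 2.24 (SE 0.24). BCMA (*Tnfrsf17*), the receptor of long-lived plasma cells, had 5, 12, and 5 counts in AAV5-*Gfp* and 12, 19, and 21 in AAV5-*V1+V2*. The groups met at 12 counts but did not overlap as CPM, and the log2 fold change of 1.20 (SE 0.41, adjusted p = 0.0883) did not pass.

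BAFF itself (*Tnfsf13b*, chr8:10006467-10039072), made mainly by myeloid and stromal cells, was at 4.62, 3.64, and 3.75 CPM in AAV5-*Gfp* and at 9.42, 4.96, and 7.64 CPM in AAV5-*V1+V2* libraries. With a log2 fold change of 0.87 (SE 0.24) and an adjusted p of 0.0495, it lay at the threshold, and it did not pass without AAV5-*V1+V2* replicate 1 (0.0842) or replicate 3 (0.0741), nor with RLE (0.0507) or upper quartile normalization (0.0508), a filter at a mean of 10 counts (0.0506), or limma-voom (0.0722). The level of BAFF receptor relative to BAFF was between 8.73% and 12.8% in AAV5-*Gfp* and between 38.2% and 75.8% in AAV5-*V1+V2* libraries, a ratio within each library that no normalization changes. APRIL (*Tnfsf13*), the other ligand of TACI and BCMA, had 4, 20, and 31 counts in AAV5-*Gfp* and 39, 36, and 18 in AAV5-*V1+V2*, with overlap between the groups (log2 fold change 0.72, SE 0.60, adjusted p = 0.429).

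Both receptors of TNF were higher, to very different degrees. TNFR2 (*Tnfrsf1b*, chr4:145213463-145246870), which lacks a death domain and is found mainly on immune and endothelial cells, was at 9.82, 9.12, and 7.53 CPM in AAV5-*Gfp* and at 70.2, 32.9, and 23.2 CPM in AAV5-*V1+V2* libraries. Even the lowest AAV5-*V1+V2* library, replicate 3, was far above all control libraries (log2 fold change 2.25, SE 0.39, adjusted p = 0.0176). TNFR1 (*Tnfrsf1a*, chr6:125349362-125362484), the death domain receptor that most cell types carry, was at 14.04, 14.31, and 15.73 CPM in AAV5-*Gfp* and at 24.5, 19.9, and 18.6 CPM in AAV5-*V1+V2* (log2 fold change 0.52, SE 0.12, adjusted p = 0.0319). It did not pass without AAV5-*V1+V2* replicate 2 (adjusted p = 0.0648). TNFR2 was at between 47.9% and 70.0% of the CPM of TNFR1 in AAV5-*Gfp* and at between 125% and 286% in AAV5-*V1+V2* libraries, a turn in order that holds for CPM, while per kilobase of exon TNFR2 remained below TNFR1 in AAV5-*V1+V2* replicate 3 (6.08 and 7.19 CPM per kb).

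In the TRAIL system, the ligand was higher and none of its receptors passed the test. TRAIL (*Tnfsf10*, chr3:27317028-27342427), an interferon-induced ligand that can kill cells through DR5, was at 7.81, 6.58, and 6.25 CPM in AAV5-*Gfp* and at 19.998, 12.08, and 13.56 CPM in AAV5-*V1+V2* libraries (log2 fold change 1.14, SE 0.20, adjusted p = 0.0182). DR5 (*Tnfrsf10b*), the death receptor of TRAIL in the mouse, was at between 1.43 and 1.70 CPM in AAV5-*Gfp* and at 2.89, 2.25, and 2.16 CPM in AAV5-*V1+V2*. The groups did not overlap, and its adjusted p of 0.0534 (log2 fold change 0.66, SE 0.19) was just above the threshold, which it passed with total counts as the only scaling (0.0422). The decoy receptors lack a death domain and bind TRAIL without killing. The first of them, *Tnfrsf23*, had a log2 fold change of -0.08 (SE 0.20, adjusted p = 0.796) and the other, *Tnfrsf22*, had 18, 18, and 21 counts in AAV5-*Gfp* and 17, 13, and 39 in AAV5-*V1+V2* (0.23, SE 0.42, adjusted p = 0.721).

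In the RANK system, the ligand also passed the test and its receptors did not, and the difference between them was not tested. RANKL (*Tnfsf11*, chr14:78277445-78308043), which activated T cells and stromal cells make, had 12, 10, and 8 counts in AAV5-*Gfp* and 64, 26, and 44 in AAV5-*V1+V2* libraries (log2 fold change 2.11, SE 0.39, adjusted p = 0.01998). RANK (*Tnfrsf11a*, chr1:105780718-105847981), its signaling receptor, was among the more abundant members, at 29.0, 29.2, and 27.9 CPM in AAV5-*Gfp* and at 24.9, 27.3, and 27.6 CPM in AAV5-*V1+V2*. It was the only member whose AAV5-*V1+V2* libraries all lay below the control libraries, by a log2 fold change of -0.11 (SE 0.07, adjusted p = 0.310) that did not pass. Osteoprotegerin (*Tnfrsf11b*), the soluble decoy that captures RANKL, was between 1.51 and 2.76 CPM in AAV5-*Gfp* and between 2.80 and 3.21 CPM in AAV5-*V1+V2* (log2 fold change 0.46, SE 0.23, adjusted p = 0.196). Within each library, RANKL was at between 12.66% and 17.02% of the CPM of osteoprotegerin in AAV5-*Gfp* and at between 25.7% and 69.6% in AAV5-*V1+V2*.

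No member of the TWEAK system passed the test. Fn14 (*Tnfrsf12a*), a receptor known to be induced in injured tissue, was between 3.17 and 4.62 CPM in AAV5-*Gfp* and between 4.56 and 5.20 CPM in AAV5-*V1+V2* libraries (log2 fold change 0.31, SE 0.17, adjusted p = 0.228). TWEAK (*Tnfsf12*) itself had 31, 48, and 29 counts in AAV5-*Gfp* and 71, 49, and 51 in AAV5-*V1+V2* (log2 fold change 0.64, SE 0.25, adjusted p = 0.124). Its counts are uncertain, as are those of APRIL, because both genes lie on chromosome 11 inside *Tnfsfm13*, a readthrough gene that joins TWEAK and APRIL, and beside the antisense gene *Tnfsf13os* (chr11:69682138-69691141). In GENCODE M21, 48.3% of the exon bases of *Tnfsf12*, 60.0% of those of *Tnfsf13*, 78.1% of those of *Tnfsfm13*, and 22.8% of those of *Tnfsf13os* are shared with another of these genes, and how reads there were assigned, or whether strand was used, is not given in the sources used here. *Tnfsfm13* held most of the reads of the locus, between 8.08 and 11.1 CPM in AAV5-*Gfp* and between 10.8 and 14.6 CPM in AAV5-*V1+V2* (log2 fold change 0.29, SE 0.17, adjusted p = 0.265). Summed into 1 gene, *Tnfsf12*, *Tnfsf13*, and *Tnfsfm13* had a log2 fold change of 0.35 (SE 0.16, adjusted p = 0.159). *Tnfsf13os* was at 2.70, 4.72, and 5.66 CPM in AAV5-*V1+V2* libraries, against between 4.82 and 5.70 CPM in AAV5-*Gfp* (log2 fold change -0.25, SE 0.26, adjusted p = 0.514).

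Receptors known from the nervous system did not pass the test, whereas an orphan receptor did. DR6 (*Tnfrsf21*, chr17:43016555-43089189), a death domain receptor studied in axon degeneration, was the most abundant member, at 117, 103, and 121 CPM in AAV5-*Gfp* and at 88.9, 113, and 112 CPM in AAV5-*V1+V2* libraries. The groups overlapped, with AAV5-*V1+V2* replicate 1 the lowest of all 6 (log2 fold change -0.12, SE 0.11, adjusted p = 0.471). TROY (*Tnfrsf19*), a coreceptor for myelin inhibitors of axon growth, was between 8.14 and 9.54 CPM in AAV5-*Gfp* and between 7.66 and 12.3 CPM in AAV5-*V1+V2* (0.14, SE 0.18, adjusted p = 0.612). *Tnfrsf26* (chr7:143607659-143628722), a receptor without an established ligand, was at 0.84, 0.72, and 0.96 CPM in AAV5-*Gfp* and at 4.32, 2.46, and 1.87 CPM in AAV5-*V1+V2* (log2 fold change 1.78, SE 0.34, adjusted p = 0.0215). It lies 6.08 kb from the decoy receptor gene *Tnfrsf22*, which lies 16.1 kb from *Tnfrsf23*. *Tnfrsf26* was at between 42.3% and 48.1% of the CPM of *Tnfrsf23* in AAV5-*Gfp* and at between 102% and 237% in AAV5-*V1+V2* libraries, so that neighbors in this cluster differed in how they moved.

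Other members also lie near each other in GRCm38, and whether genes outside the 33 members lie between them was not examined. OX40 and GITR, both higher, are 9.55 kb apart on chromosome 4, where TNFR2 and CD30, also both higher, are 20.3 kb apart and TL1A and CD30 ligand, both higher as well, are 86.2 kb apart. OX40 ligand and GITR ligand, both too low to pass the filter, are 76.2 kb apart on chromosome 1. On chromosome 17, 4-1BB ligand, too low to pass the filter, lies 81.7 kb from LIGHT, which was higher.

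To compare levels between genes, CPM was divided by the exon length in kilobases. DR6 ranked first of the 33 members in both groups, with 27.6 ± 2.28 CPM per kb in AAV5-*Gfp* and 25.4 ± 3.30 CPM per kb in AAV5-*V1+V2* (SD, n = 3 in each). TNFR1 came second in AAV5-*Gfp*, at 5.67 ± 0.352 CPM per kb, ahead of RANK at 4.79 ± 0.120 and TNFR2, seventh, at 2.31 ± 0.307. In AAV5-*V1+V2*, TNFR2 was second at 11.02 ± 6.495 CPM per kb and HVEM in the third place at 9.50 ± 5.81, up from 2.73 ± 0.127 CPM per kb and the sixth place. The SD of these exceeds their distance from TNFR1, in the fourth place at 8.11 ± 1.19 CPM per kb, so that the order among them is not settled, while RANK was sixth at 4.44 ± 0.243. BAFF receptor moved from the 22nd to the 11th place, from 0.221 ± 0.0599 to 2.19 ± 1.00 CPM per kb. GITR ligand was last in both groups.

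Of 17 textbook pairs of a ligand with a receptor, both genes were higher in 5. These were BAFF with BAFF receptor, BAFF with TACI, CD30 ligand with CD30, LIGHT with HVEM, and TL1A with DR3. Pairs share genes and are not independent of each other, and BAFF lay at the threshold. CD30, LIGHT, and TL1A passed the filter only through AAV5-*V1+V2* libraries, as did BCMA, APRIL, RANKL, 4-1BB, and GITR in other pairs. No share of pairs over all genes was computed, and 10.1% of all single genes tested were higher. Only the ligand was higher in 6 pairs, those of TRAIL with DR5 and the decoys, of RANKL with RANK and osteoprotegerin, and of BAFF with BCMA. Only the receptor was higher in 1, APRIL with TACI, and neither was in 2, APRIL with BCMA and TWEAK with Fn14. The difference between a ligand and its receptor was not tested. In the other 3 pairs, the receptors OX40, 4-1BB, and GITR were higher and their ligands had too few counts to pass the filter. The receptor had the larger log2 fold change for BAFF with BAFF receptor (0.87 and 3.31) and the ligand for TL1A with DR3 (2.71 and 0.68), and for CD30 ligand with CD30 (2.41 and 2.51) and LIGHT with HVEM (1.496 and 1.797) the values differed by less than the SE of the receptor's.

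**Figure D4:**
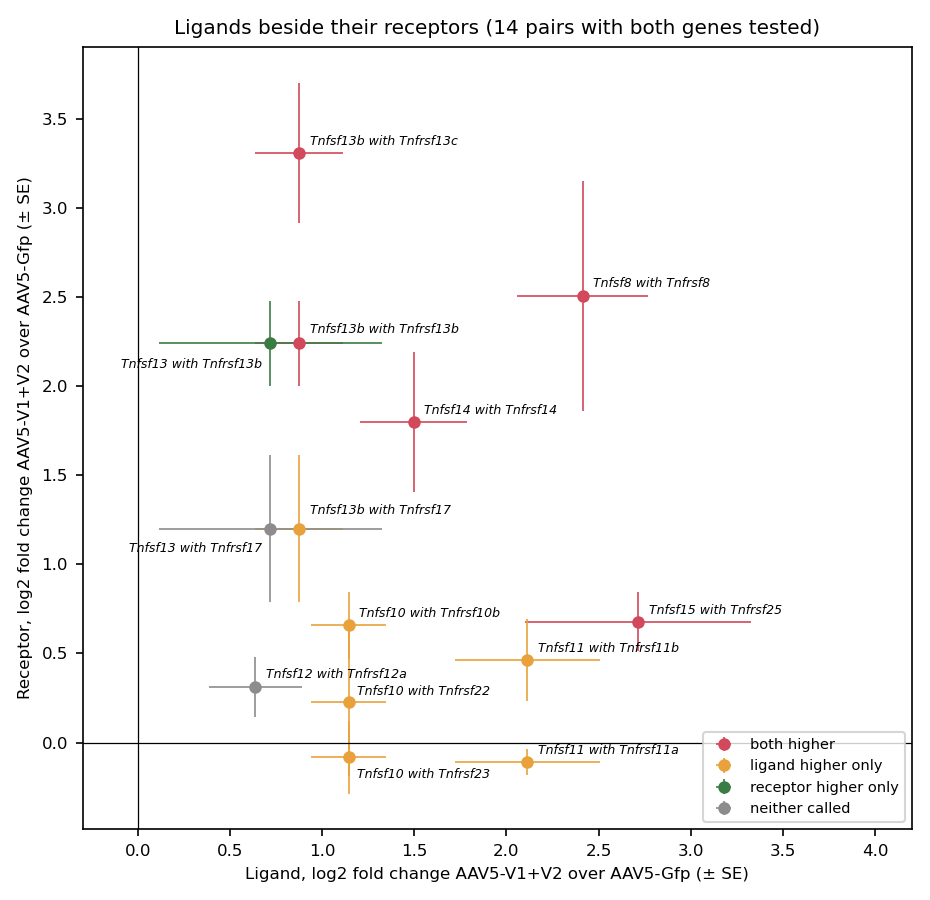
For the 14 pairs in which both genes were tested, the log2 fold change of the ligand (x axis) is plotted against that of the receptor (y axis), each AAV5-V1+V2 over AAV5-Gfp with bars for the standard error. The 5 red pairs have both genes higher, and the 6 orange pairs, with the ligand alone higher, lie low in the plot, at receptor values from -0.11 to 1.20.

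Genes of the superfamily with other symbols were given as a list of 15, of which 14 were tested, 8 were higher, and 0 were lower (median log2 fold change 2.10), beside 10.1% higher and 5.27% lower among all genes. Of the 14, 5 (*Tnf*, *Lta*, *Fasl*, *Cd40lg*, and *Cd27*) passed the filter only through AAV5-*V1+V2* libraries and were all higher, beside 37.9% of all such genes. Of the other 9, which passed on AAV5-*Gfp* levels, 3 were higher, beside 9.29%. TNF (*Tnf*) was at between 0.26 and 0.37 CPM in AAV5-*Gfp* and at 4.56, 1.98, and 1.66 CPM in AAV5-*V1+V2* libraries (log2 fold change 3.05, SE 0.46, adjusted p = 0.0144), so that TNF and both of its receptors were higher. Lymphotoxin alpha (*Lta*, log2 fold change 3.08) and lymphotoxin beta (*Ltb*, 3.50), which organize lymphoid tissue, were also higher, with adjusted p of 0.0144 and 0.0156. *Lta* had only 4, 3, and 1 counts in AAV5-*Gfp* and 32, 21, and 19 in AAV5-*V1+V2* libraries. To complete the list, the other 5 higher genes were *Cd40*, *Cd40lg*, *Fas*, *Fasl*, and *Cd27*, those that did not pass were *Ltbr*, *Ngfr*, *Relt*, *Eda*, *Edar*, and *Eda2r*, and *Cd70* had too few counts to pass the filter. Of 27 genes for TNF receptor adaptors and NF-kB components, 16 were higher and 0 were lower, all of them tested on AAV5-*Gfp* levels that passed the filter (9.29% of such genes were higher), with a median log2 fold change of 0.51, and the smallest adjusted p were those of the adaptor *Traf1* (log2 fold change 2.08, adjusted p = 0.0154), the caspase *Casp8* (1.30, 0.0157), and the ubiquitin ligase *Birc3* (1.85, 0.0168). Of 20 known NF-kB target genes, 16 were tested and 13 were higher, with a median of 2.10, led by the adhesion molecule *Vcam1* (2.03, adjusted p = 0.0139), *Bcl2a1d* (3.61, 0.0139), and *Cxcl13* (5.64, 0.0139). Of the 5 that passed the filter only through AAV5-*V1+V2* libraries, 4 were higher, beside 37.9% of all such genes. *Bcl2a1d* and *Cxcl13* are among these, with 6, 8, and 6 and with 25, 2, and 1 counts in AAV5-*Gfp* replicates 1 to 3. On AAV5-*Gfp* levels, 11 passed and 9 of them were higher, beside 9.29%. Some of these target genes are themselves markers of lymphocytes and myeloid cells.

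Markers of immune cells were also higher in AAV5-*V1+V2* libraries, and their counts stand beside the 10.1% higher and 5.27% lower of all genes. All 10 B cell markers were higher, and their summed level was between 19.0 and 27.8 CPM in AAV5-*Gfp* and between 122 and 283 CPM in AAV5-*V1+V2* libraries. Of the T and NK cell markers, 12 of 14 were higher (5.97 to 15.7 CPM and then 52.2 to 115 CPM), as were 12 of 13 macrophage and monocyte markers (136 to 192 CPM and then 310 to 584 CPM). Among the T and NK cell markers that passed the filter on AAV5-*Gfp* levels, 6 of 7 were higher, beside 9.29% of all such genes. Those that passed only through AAV5-*V1+V2* libraries also had 6 of 7 higher, beside 37.9%. The 7 plasma cell markers (59.6 to 68.3 CPM and then 273 to 327 CPM), the 4 regulatory T cell markers (32.7 to 39.5 CPM and then 56.8 to 95.7 CPM), and 6 of 8 dendritic cell markers (55.2 to 62.2 CPM and then 87.7 to 135 CPM) were also higher. In the B cell, plasma cell, regulatory T cell, and dendritic cell lists, 1 marker each passed the filter only through AAV5-*V1+V2* libraries and was higher. On AAV5-*Gfp* levels, 9 of 9, 6 of 6, 3 of 3, and 5 of 7 were higher in these lists. In AAV5-*Gfp* libraries, *Ikzf2* (31.2 to 37.3 CPM) made up most of the regulatory T cell sum. Most of the dendritic cell sum there came from *Flt3* (19.6 to 22.5 CPM) and *Zbtb46* (23.6 to 28.6 CPM), neither of them called. Fewer markers of resident cells were called, with 0 higher and 1 lower of 12 for sensory neurons, 0 of 7 higher for Schwann cells, 1 of 6 for satellite glia, 2 of 8 for fibroblasts and perineurial cells, and 1 higher and 1 lower of 8 for endothelial cells and pericytes. The summed fibroblast and perineurial level rose without overlap (1329 to 1722 CPM and then 2064 to 3017 CPM). The neuronal sum, given above, was lower without overlap, and the sums of the other resident lists overlapped. The 1 lower neuronal marker was *Rbfox3* (log2 fold change -0.93, adjusted p = 0.0256) and the 1 lower endothelial marker was *Flt1* (-0.42, adjusted p = 0.0378). Neutrophil markers had 1 of 9 higher, lymph node stroma markers 1 of 5, nerve injury markers 3 of 8, and erythrocyte markers 0 of 6. The neutrophil sum (107 to 121 CPM and then 148 to 295 CPM) and the lymph node stroma sum (31.7 to 36.5 CPM and then 43.8 to 88.0 CPM) nevertheless rose without overlap. The nerve injury and erythrocyte sums overlapped. No marker in these lists was at 0 in all AAV5-*Gfp* libraries. The part of these cells in the levels of the TNF superfamily was not tested.

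The level of each of the 17 higher members was also set against the summed level of 4 marker lists in each library, as a description, and the picture depended on the list. Relative to the B cell marker sum, 13 members were lower in every AAV5-*V1+V2* library than in any AAV5-*Gfp* library and 4 overlapped, and relative to the T and NK cell marker sum 10 were lower and 7 overlapped. Relative to the macrophage and monocyte marker sum, 6 were higher, 2 were lower, and 9 overlapped, and relative to the plasma cell marker sum 2 were higher, 5 were lower, and 10 overlapped. The plasma cell sum was mostly *Xbp1* in AAV5-*Gfp* libraries (41.1 to 43.9 CPM) and mostly *Jchain* in AAV5-*V1+V2* libraries (169 to 194 CPM). Ratios to it therefore set the members against different genes in the groups. BAFF receptor was at between 1.67% and 2.48% of the B cell marker sum in AAV5-*Gfp* and at between 2.39% and 2.88% in AAV5-*V1+V2* libraries, with overlap. TACI was at between 6.13% and 7.27% of the same sum in AAV5-*Gfp* and at between 3.31% and 4.79% in AAV5-*V1+V2*. Of the T and NK cell marker sum, OX40 took between 3.94% and 11.1% in AAV5-*Gfp* and between 2.46% and 2.65% in AAV5-*V1+V2*, and 4-1BB between 1.38% and 3.91% and between 1.00% and 1.03%. GITR overlapped there, at between 0.789% and 2.42% and at between 1.23% and 1.83%, and was higher relative to the macrophage and monocyte sum, at between 0.0646% and 0.0789% and at between 0.207% and 0.359%. CD30 ligand overlapped relative to the T and NK cell marker sum, at between 5.72% and 12.6% in AAV5-*Gfp* and at between 4.91% and 6.37% in AAV5-*V1+V2*. TNFR2 was higher relative to the macrophage and monocyte sum, at between 4.99% and 5.54% and at between 7.49% and 12.02%, and lower relative to the B cell sum, at between 35.3% and 47.9% and at between 19.1% and 25.3%, and to the T and NK cell sum, at between 62.5% and 153% and at between 44.5% and 61.2%.

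**Figure D5:**
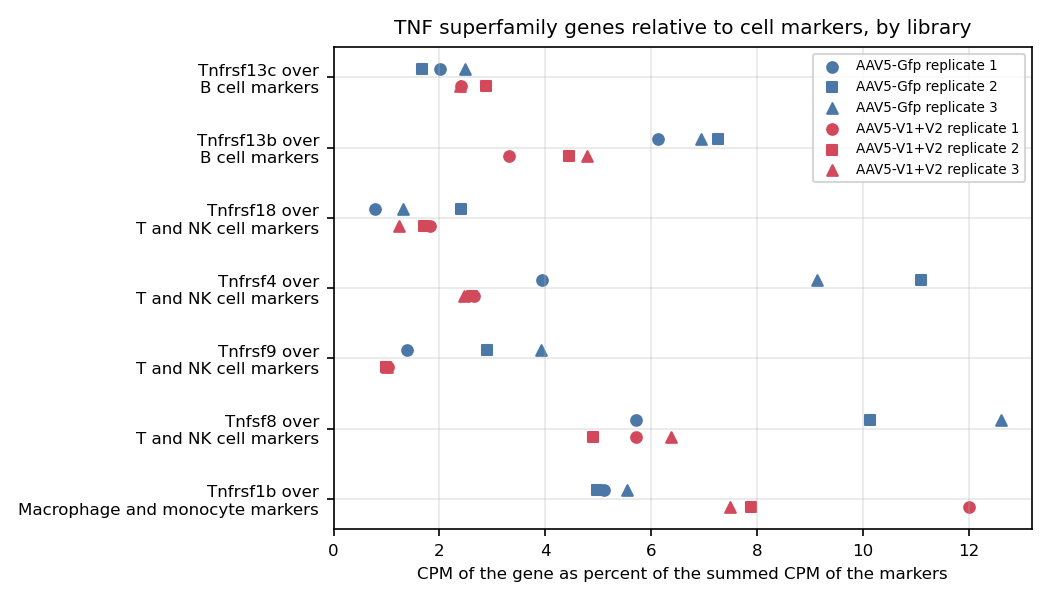
The CPM of each of 7 of the 17 higher members is plotted as a percentage of the summed CPM of 1 marker list, named beside it (x axis) in every library, in blue for AAV5-Gfp and red for AAV5-V1+V2. The colors overlap for BAFF receptor (Tnfrsf13c), GITR (Tnfrsf18), and CD30 ligand (Tnfsf8), the red symbols lie to the left for TACI (Tnfrsf13b), OX40 (Tnfrsf4), and 4-1BB (Tnfrsf9), and to the right for TNFR2 (Tnfrsf1b).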

How the data were processed

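Total RNA from mouse DRGs was sequenced with a stranded kit, and the deposited values are the authors' raw counts for each gene, not normalized, in 1 table of 48440 named rows and 6 libraries. The submitters' processing notes name GRCm38/mm10, while the aligner, the annotation, and the use of strand in counting are not given in the sources used here. Columns were assigned to groups by name. Members are all symbols beginning with *Tnfsf* or *Tnfrsf*, and the members and lists were chosen with earlier results of these data known.

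Genes were kept by filterByExpr in edgeR 4.0.16 (R 4.3.3), normalized by TMM, and tested by the quasi-likelihood test without a block (glmQLFit and glmQLFTest), with Benjamini-Hochberg adjustment over all 18593 genes tested and a threshold of 0.05. The SE is the log2 fold change divided by the square root of F. The script was tested on simulated data. CPM are TMM-normalized, and differences are AAV5-*V1+V2* over AAV5-*Gfp*. Permutation of 3 libraries against 3 cannot give an exact p below 0.1 and was not used. Alternatives were RLE, upper quartile, and total-count scaling, other filters, DESeq2 1.42.0, limma-voom (limma 3.58.1), the replicate number as a block, and leaving out each library. The sum of 3 overlapping genes on chromosome 11 was added after seeing the data. Every member is named, and other lists give up to 3 genes with the smallest adjusted p and any gene called against its list's direction, apart from symbols given without values. Coordinates and exon lengths come from GENCODE M21 (GRCm38) and promoters from RefSeq (GRCm38.p6).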

Additional observations from a re-analysis of the deposited data

How the results depend on the processing

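Of 447 log2 fold changes of members recomputed under alternatives, 374 kept their direction and their side of the threshold, 68 kept their direction and no longer passed, 1 newly passed, and 4 changed sign. The members higher numbered between 13 (limma-voom) and 18 (total counts) over the other scalings, filters, and tests, and 17 with DESeq2, 19 at an adjusted p under 0.1, and 14 with a 2-fold change. None was lower in any setting. Leaving out 1 library gave between 0 and 16 members higher, and among all genes between 12 and 2474 higher and between 0 and 1446 lower, and a fit with 2 libraries in a group has fewer degrees of freedom. With DESeq2, 1606 of all genes were lower, in place of 980, and the cause was not tested. The labels do not say whether the replicate numbers pair the libraries. The deviations of same-numbered libraries correlated by 0.036, 0.066, and 0.107, and those of the other pairs by between -0.104 and 0.043. AAV5-*V1+V2* replicate 1 correlated best with AAV5-*Gfp* replicate 2 (0.043). These values are too small and too few to settle whether the libraries are paired. With the replicate number as a block, 16 members were higher, without DR3 (*Tnfrsf25*, adjusted p = 0.0574), and 2118 of all genes were higher and 1341 lower. The log2 fold changes that changed sign were not called in any setting. Over the fits that leave out 1 library, *Tnfrsf19* lay between -0.044 and 0.31, *Tnfrsf22* between -0.35 and 0.52, *Tnfrsf23* between -0.22 and 0.086, and *Tnfsf13os* between -0.48 and 0.0029, with the sign turned without AAV5-*V1+V2* replicate 1 for *Tnfrsf19* and *Tnfsf13os*, without AAV5-*V1+V2* replicate 3 for *Tnfrsf22*, and without AAV5-*Gfp* replicate 3 for *Tnfrsf23*. At the depth of these libraries, members with under about 10 counts per AAV5-*Gfp* library rest on few reads, and 3 ligands were tested only without the filter, 1 of them also in some fits that leave out a library.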
